A study of Mus musculus with 6 samples.

Results

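The 10 genes described here encode the NF-κB subunits (Rela, Rel, Relb, Nfkb1 and Nfkb2) and 5 proteins grouped here as inhibitors (Nfkbia, Nfkbib, Nfkbie, Nfkbiz and Tnfaip3). Of the latter, Nfkbiz encodes an atypical nuclear IκB that works as a coactivator. The 10 genes were chosen by name, with earlier results of these data known. All 10 were found among the 25700 genes of the count files by their Ensembl identifiers. The data are bulk RNA-Seq libraries of mouse bone marrow–derived macrophages (BMDMs), 3 from control cultures and 3 from heme-treated cultures, each from macrophages of 1 mouse. Bone marrow of C57BL/6J mice aged 8 to 10 weeks was grown in 100 ng/ml M-CSF, the growth factor that turns marrow cells into macrophages. On day 3 the heme group received 300 μM heme-albumin and the control group albumin alone, and both were harvested on day 7. M-CSF, strain and albumin were thus common to both groups, no deletion is named, and no inflammatory stimulus is named for these cultures. The labels do not tell whether a control and a heme culture of equal number shared a mouse.

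NF-κB is a family of dimeric transcription factors that switches on inflammatory and survival genes after signals from Toll-like, TNF and IL-1 receptors. In resting cells the IκB proteins hold the dimers in the cytoplasm until the IκB kinase (IKK) complex marks them for degradation. Several inhibitor genes are themselves NF-κB targets, which gives the pathway its negative feedback, in macrophages as in other cells. RELA, REL and RELB carry the domain that activates transcription. NFKB1 and NFKB2 are precursors whose long forms act like IκB proteins and whose processed forms pair with the others.

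The genes lie on 8 chromosomes of GRCm38. Of the subunit genes, Rela is on chromosome 19 from 5637483 to 5648130 and Nfkb2 on the same chromosome from 46304320 to 46312385. Rel is on chromosome 11 (23736847 to 23770970), Relb on chromosome 7 (19606217 to 19629438) and Nfkb1 on chromosome 3 (135584655 to 135691547). Among the inhibitor genes, Nfkbia is on chromosome 12 (55489410 to 55492647), Nfkbib on chromosome 7 (28758251 to 28767512) and Nfkbie on chromosome 17 (45555703 to 45563169). Nfkbiz is on chromosome 16 (55811375 to 55838899) and Tnfaip3 on chromosome 10 (19000910 to 19015657). The exons of Nfkb2 and Nfkbib partly overlap genes on the other strand. For Nfkb2 these are Psd (299 bases) and a long noncoding RNA that is not in the count files (531 bases), and for Nfkbib they are Ccer2 (314 bases) and Sirt2 (42 bases). Sirt2 had more reads than Nfkbib (31342 against 7075 over the 6 libraries), and the sources used here do not give the strand setting of the counting, without which reads of the 42 shared bases cannot be told apart.

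The RefSeq table (GRCm38.p6) held promoter windows, 250 bases before to 50 after a start site, for 7 of the 10 genes, and those of Nfkb1, Relb and Nfkbiz were not analysed here. The windows were searched on both strands for the 10-base NF-κB consensus and for TGACNNNGC, the core of the antioxidant response element bound by NRF2. The 4 windows below are examples, 3 with and 1 without the NF-κB consensus. The mRNA of all 7 genes with a window differed between the groups, and those of Rela, Rel and Nfkbie are not shown. Capitals mark matches to it, and overlapping matches form 1 stretch.
Nfkbia, IκBα, chr12:55492598-55492897, minus strand: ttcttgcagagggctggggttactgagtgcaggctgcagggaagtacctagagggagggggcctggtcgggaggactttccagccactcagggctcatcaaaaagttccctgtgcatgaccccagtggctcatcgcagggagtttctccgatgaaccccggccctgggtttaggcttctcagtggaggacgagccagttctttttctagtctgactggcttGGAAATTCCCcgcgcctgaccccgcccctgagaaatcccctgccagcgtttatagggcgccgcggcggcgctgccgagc
Tnfaip3, A20, chr10:19015361-19015660, minus strand: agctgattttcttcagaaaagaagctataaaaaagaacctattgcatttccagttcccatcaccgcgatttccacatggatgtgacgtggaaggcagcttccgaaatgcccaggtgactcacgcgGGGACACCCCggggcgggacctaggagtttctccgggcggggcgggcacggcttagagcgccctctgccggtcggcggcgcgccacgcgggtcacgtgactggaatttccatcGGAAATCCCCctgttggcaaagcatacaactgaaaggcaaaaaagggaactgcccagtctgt
Nfkb2, precursor of p52, the first of 3 windows, chr19:46304487-46304786, plus strand: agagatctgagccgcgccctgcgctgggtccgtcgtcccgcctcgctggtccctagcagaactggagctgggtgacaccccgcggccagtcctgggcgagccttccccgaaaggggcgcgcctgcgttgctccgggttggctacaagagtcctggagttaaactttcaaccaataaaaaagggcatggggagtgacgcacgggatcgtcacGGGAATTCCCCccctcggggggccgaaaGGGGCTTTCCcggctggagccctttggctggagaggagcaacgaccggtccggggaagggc
Nfkbib, IκBβ, chr7:28766595-28766894, minus strand: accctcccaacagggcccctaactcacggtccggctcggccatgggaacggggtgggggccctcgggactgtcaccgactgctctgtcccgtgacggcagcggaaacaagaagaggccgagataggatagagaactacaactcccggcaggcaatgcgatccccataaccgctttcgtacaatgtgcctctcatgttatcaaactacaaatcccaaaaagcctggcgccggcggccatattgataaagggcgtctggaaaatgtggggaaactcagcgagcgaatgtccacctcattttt

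A match was found in at least 1 window of Nfkbia, Nfkbie, Tnfaip3, Rel and Nfkb2 and in none of Rela and Nfkbib, that is in 5 of 7 genes. Of all 27025 genes with a window, 9.55% had one. The match of Nfkbia (GGAAATTCCC) begins 29 bases before the start site, one of the matches of Tnfaip3 (GGAAATCCCC) 12 bases before it, and that of Nfkbie (GGGGGATTCC) 106 bases before it. TGACNNNGC was found in 1 of the 7 genes, Nfkbia, and in 14% of all genes. Such matches describe the letters of these windows and do not show binding.

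The libraries held 27201038 to 32994595 counts. The lowest correlation of log2 CPM between libraries of 1 group was 0.99, above the highest between the groups (0.915). Each member passed the filter on low counts in edgeR. With heme, 3938 of 12433 tested genes were higher and 3831 lower at an adjusted p under 0.05, or 31.7% and 30.8%. When only library sizes were used for scaling, the median log2 fold change over all genes was -0.22 instead of 0.0041, and 2580 genes were higher and 5814 lower. All p-values measure the spread between these 3 cultures a group. As the samples are bulk cultures, fewer cells of a type and less RNA per cell cannot be told apart.

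Most subunit genes fell and most inhibitor genes rose in heme-treated BMDMs. Of the 5 subunit genes, 4 fell, 0 rose and 1 (Relb) did not pass the test, and of the 5 inhibitor genes, 4 rose, 0 fell and 1 (Nfkbiz) did not pass the test (edgeR's quasi-likelihood test, Benjamini-Hochberg adjusted p under 0.05 over all genes). Together 8 of the 10 genes were called, where 62.5% of all tested genes were, so being called did not set them far apart from other genes. The same 8 were the genes whose control and heme libraries did not overlap, as in 68.8% of all tested genes. The median log2 fold change was -0.26 for the subunits and 0.86 for the inhibitors, beside 0.0041 over all tested genes. No member changed by more than 1 on the log2 scale, which 19.5% of the tested genes did with a call. Rela, Relb, Nfkb1 and Nfkbiz each changed by less than the median absolute log2 fold change of all tested genes (0.39). The 8 calls were kept with every scaling, filter, tool and left-out library that was tried. The size of the smaller changes moved with the scaling: with library sizes alone the log2 fold changes were -0.48 for Rela and Nfkb1, -0.63 for Nfkb2 and 0.37 for Nfkbib.

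**Figure D1:**
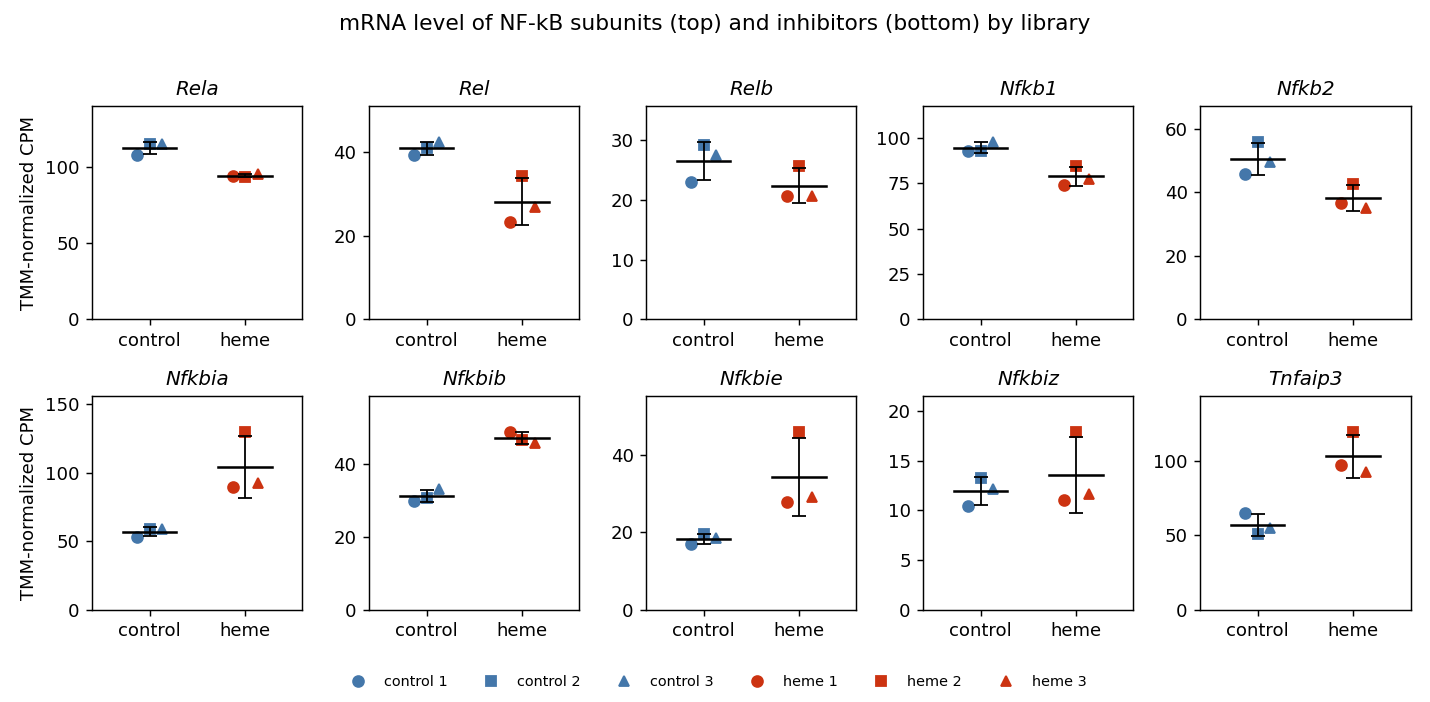
TMM-normalized CPM (y axes from 0) of the 10 genes in 3 control and 3 heme libraries, with subunits in the top row and inhibitors in the bottom row. Points are libraries, lines group means and bars SDs (n = 3). The groups do not overlap in 8 panels and overlap for Relb and Nfkbiz, and heme replicate 2 (square) is the highest heme library in 8 panels.

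Rela encodes p65, the main activating subunit of the canonical pathway. Its level was 108, 115 and 115 CPM (counts per 1000000, TMM-normalized) in the control libraries and 94, 93.4 and 95.7 CPM in the heme libraries. The groups did not overlap, and the heme libraries lay within 3 CPM of each other. The log2 fold change (heme over control) was -0.25 (standard error 0.06, adjusted p = 0.00398, edgeR).

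Rel, which encodes c-Rel, a subunit found mainly in blood cells, had the largest fall of the subunit genes. It was at 39.2, 40.8 and 42.4 CPM in controls and at 23.2, 34.3 and 26.8 CPM with heme. All heme libraries were lower than all controls, but heme replicate 2 stood closer to the controls than the other two. The log2 fold change was -0.54 (standard error 0.12, adjusted p = 0.00405, edgeR), and -0.71 without heme replicate 2 (adjusted p = 0.000328).

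Nfkb1, the gene of the precursor of p50, the usual partner of p65, was at 92.8, 92.5 and 97.9 CPM in controls and at 74.1, 84.5 and 77.5 CPM with heme. These values do not overlap (log2 fold change -0.26, standard error 0.07, adjusted p = 0.00763, edgeR). Nfkb2, the gene of the precursor of p52 in the noncanonical pathway, was at 45.8, 55.9 and 49.6 CPM in controls. With heme it was at 36.5, 42.7 and 35.1 CPM. The highest heme library lay below the lowest control library (log2 fold change -0.41, standard error 0.10, adjusted p = 0.00528, edgeR).

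Relb encodes the partner of p52. Its levels overlapped, with 22.9, 29.1 and 27.5 CPM in controls and 20.6, 25.7 and 20.7 CPM with heme. The log2 fold change was -0.25 (standard error 0.12) and the adjusted p = 0.089 in edgeR's test. It passed the test without control replicate 1 (log2 fold change -0.35, adjusted p = 0.0119), without heme replicate 2 (-0.36, adjusted p = 0.0263), with library sizes alone (-0.47, adjusted p = 0.00497) and with the replicate block (-0.25, adjusted p = 0.0459). In single-gene exact two-sided permutation tests, the 8 called genes each had p = 0.1, the smallest that 3 against 3 cultures allow, and Relb had p = 0.2.

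Among the inhibitors, Nfkbia encodes IκBα, which holds p65 in the cytoplasm and is resynthesized within the feedback loop. Its level was 53.2, 59 and 58.9 CPM in controls and 89.7, 130 and 92.4 CPM with heme. Each heme library exceeded each control library, and heme replicate 2 exceeded the other heme libraries by a wide margin. The group means were 57 ± 3.32 and 104 ± 22.4 CPM (SD, n = 3), a ratio of 1.82. In edgeR's test the log2 fold change was 0.87 (standard error 0.13, adjusted p = 0.000329), and 0.68 without heme replicate 2 (adjusted p = 0.000159).

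Nfkbib encodes IκBβ, a slower inhibitor of the same dimers, and rose with the least spread. It was at 29.8, 30.7 and 33.1 CPM in controls and at 48.9, 46.7 and 45.8 CPM with heme. The groups were well apart relative to their SDs of 1.7 and 1.61 CPM (log2 fold change 0.60, standard error 0.07, adjusted p = 4.98e-05, edgeR). Nfkbie encodes IκBε, the third classical inhibitor. Its levels were 16.9, 19.5 and 18.4 CPM in controls and 27.9, 46 and 29 CPM with heme, again without overlap and with heme replicate 2 highest. Its log2 fold change was 0.91 (standard error 0.17, adjusted p = 0.00145, edgeR), and 0.64 without heme replicate 2 (adjusted p = 0.000549).

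Tnfaip3 encodes A20, a ubiquitin-editing enzyme that shuts off signaling above the IKK complex. Its mRNA was at 65, 50.9 and 55.3 CPM in controls and at 97.3, 120 and 92.9 CPM with heme. The lowest heme library was well above the highest control (log2 fold change 0.86, standard error 0.12, adjusted p = 0.000158, edgeR). Nfkbiz encodes IκBζ, an atypical nuclear IκB that works as a coactivator of secondary response genes. It was the least abundant member, at 10.4, 13.2 and 12.1 CPM in controls and 11, 17.9 and 11.6 CPM with heme. These groups overlapped (log2 fold change 0.18, standard error 0.18, adjusted p = 0.419, edgeR), and the estimate was -0.07 without heme replicate 2 and -0.044 with library sizes alone.

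**Figure D2:**
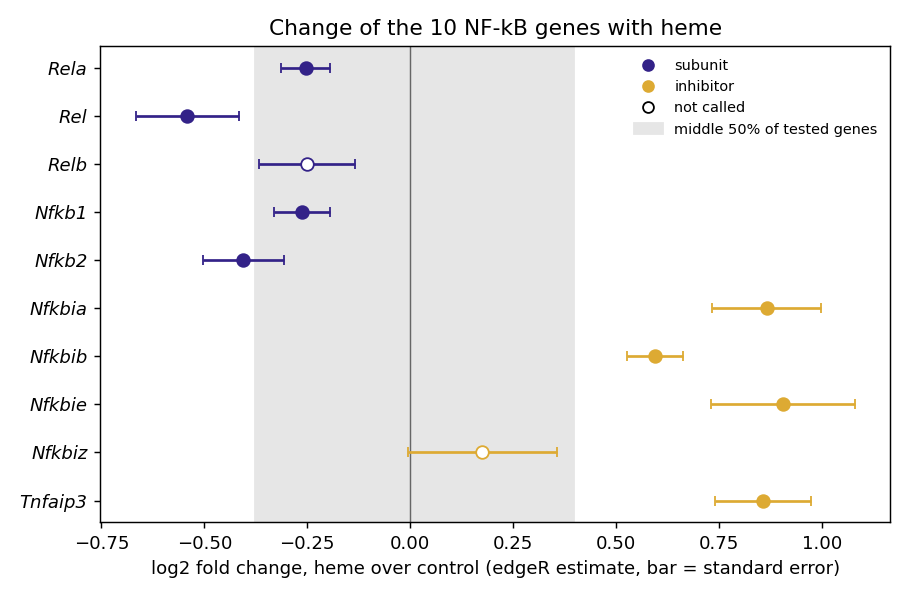
Log2 fold change (heme over control, x axis) of the 10 genes, with standard errors as bars and open points for genes that did not pass the test. Subunits run from -0.54 (Rel) to -0.25 (Relb), inhibitors from 0.18 (Nfkbiz) to 0.91 (Nfkbie), and the gray band spans the quartiles of all tested genes (-0.38 to 0.40).

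Compared per length, as CPM per kb of exons, the order of the members changed between the groups. In controls, Rela (36.6 ± 1.33 CPM per kb) and Nfkbia (35.4 ± 2.06) were highest and overlapped (SD, n = 3). Nfkbib (14.4 ± 0.785) and Nfkb2 (11 ± 1.12) followed without overlap. Below them, Tnfaip3 (7.9 ± 0.996) overlapped Nfkb1 (7.83 ± 0.254). Relb (6.83 ± 0.827) overlapped Nfkbie (6.01 ± 0.425), which overlapped Rel (5.47 ± 0.217). Nfkbiz was lowest at 2.37 ± 0.278, without overlap with Rel. In heme-treated BMDMs, Nfkbia (64.6 ± 13.9 CPM per kb) stood above Rela (30.7 ± 0.392), and the libraries of the pair no longer overlapped. Nfkbib (21.7 ± 0.74) and Tnfaip3 (14.3 ± 2.04) came next, and Nfkbie (11.3 ± 3.33) had moved from the eighth to the fifth place, where it overlapped both Tnfaip3 and Nfkb2 (8.31 ± 0.886). At the lower end, Nfkb1 (6.53 ± 0.442) overlapped Relb (5.75 ± 0.756), and Rel (3.76 ± 0.763) overlapped Nfkbiz (2.69 ± 0.757). The place of Nfkb1 depended on the gene length used. With its longest transcript (4149 bases) in place of all annotated exons (12061 bases), its level was 22.8 CPM per kb in controls and 19 with heme. These were the third and the fourth of the 10. Other places shifted too with the longest transcripts. Nfkbie then went from place 8 in controls to 6 with heme, Tnfaip3 from 6 to 5, Nfkb2 from 5 to 7 and Nfkbib from 4 to 3. The overlap of Rela and Nfkbia in controls also depended on the length. With the longest transcripts, Rela was at 39.7, 42.3 and 42.3 CPM per kb in controls and Nfkbia at 33.7, 37.4 and 37.3, without overlap.

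**Figure D3:**
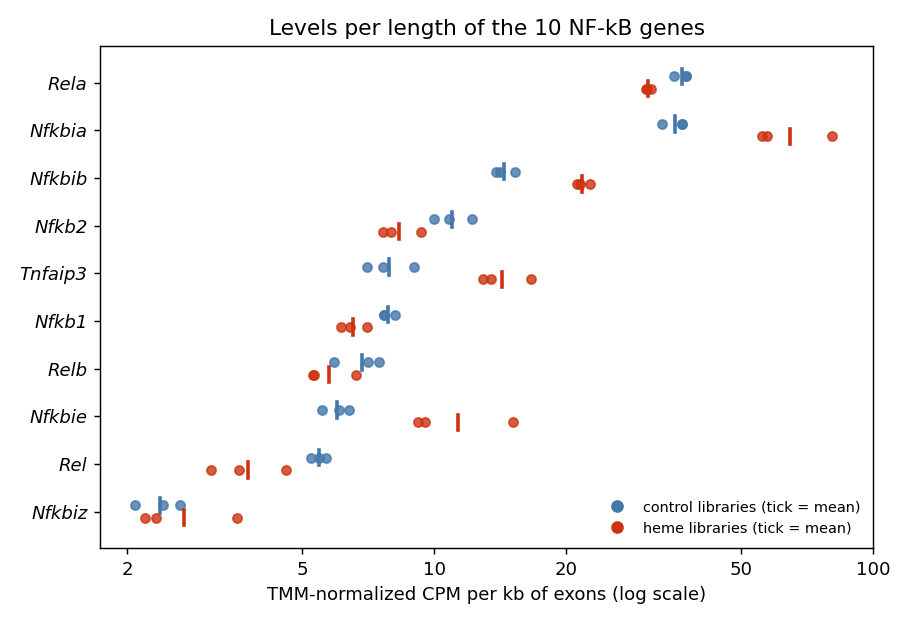
Level per length of each member (CPM per kb of exons, log axis) in the 3 control (blue) and 3 heme (red) libraries, with ticks at group means. With this length Rela and Nfkbia overlap in controls, which they do not with the longest transcript as length. They are apart with heme, where Nfkbia reaches 64.6 and Rela 30.7 CPM per kb.

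Ratios between members within a library do not depend on the scaling between libraries and are given as a description, with no test. The ratio of Nfkbia to Rela, per length, was 0.94, 0.979 and 0.977 in controls and 1.82, 2.65 and 1.84 with heme. With the longest transcript as length, this ratio was 0.848, 0.883 and 0.881 in controls and 1.64, 2.39 and 1.66 with heme. The summed level of Nfkbia, Nfkbib and Nfkbie over that of Rela, Rel and Relb was 1.13, 1.14 and 1.15 in controls and 2.24, 2.82 and 2.2 with heme. Both ratios were without overlap, and in the controls they varied little between mice. The numerator and the denominator each contributed: the 3 IκB genes summed to 55.8 ± 3.02 CPM per kb in controls and 97.6 ± 17 with heme, and the 3 Rel genes to 48.9 ± 2.32 and 40.2 ± 1.31 (SD, n = 3).

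Within each class, the proportions overlapped between the groups. Of the summed IκB mRNA, Nfkbia made up 63.4% ± 0.539 in controls and 65.9% ± 2.59 with heme, Nfkbib 25.8% ± 0.922 and 22.7% ± 3.88, and Nfkbie 10.8% ± 0.393 and 11.4% ± 1.3 (SD, n = 3). Of the summed Rel mRNA, Rela made up 74.9% ± 0.867 and 76.4% ± 2.94 and Relb 13.9% ± 1.08 and 14.3% ± 1.43. Rel made up 11.4%, 10.8% and 11.3% in the control libraries and 7.95%, 11% and 8.95% in the heme libraries. For Rel only heme replicate 2 overlapped the controls. The ratio of Relb to Rela was 0.186 ± 0.0164 and 0.187 ± 0.0264, and that of Nfkb2 to Nfkb1 was 1.41 ± 0.161 and 1.27 ± 0.0723. The groups thus overlapped also in the balance of noncanonical to canonical subunit genes. With the longest transcript as length, Nfkb2 to Nfkb1 was 0.577 ± 0.0659 and 0.521 ± 0.0296, also with overlap. Whether Nfkb2 or Nfkb1 was higher thus depended on the length used. Tnfaip3 to Nfkbia was 0.225 ± 0.0421 and 0.224 ± 0.0176. Nfkbiz to Nfkbia differed without overlap, with 0.0669 ± 0.00455 in controls and 0.0413 ± 0.00256 with heme.

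**Figure D4:**
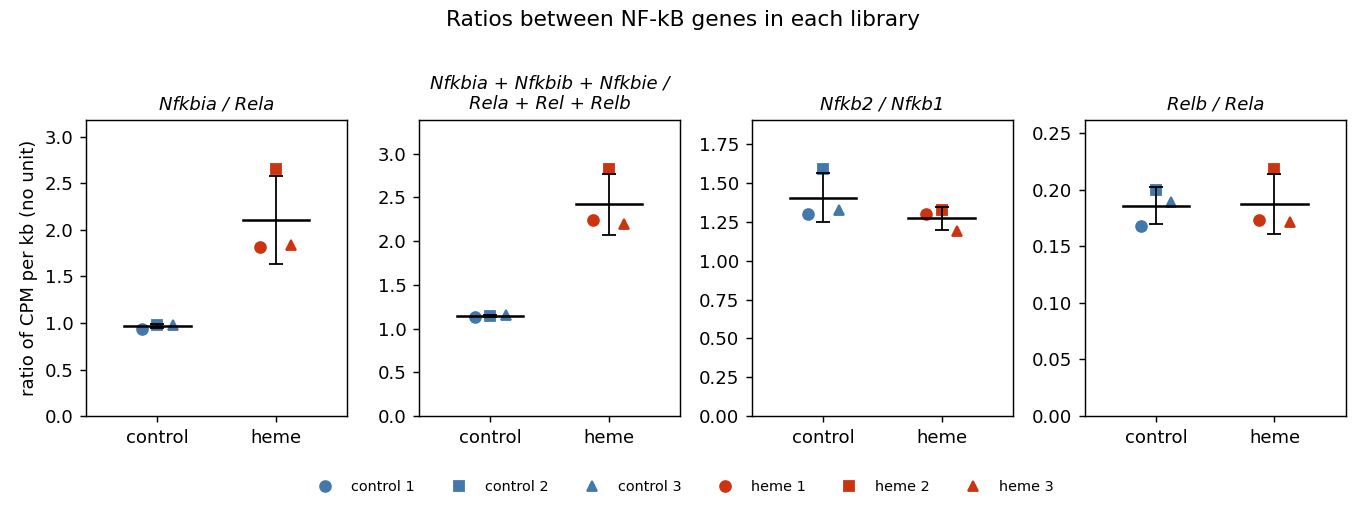
Ratios of levels per length (CPM per kb over CPM per kb, y axes from 0) in each library, with group means and SDs (n = 3). Nfkbia to Rela and the summed IκB to the summed Rel genes do not overlap between the groups, and Nfkb2 to Nfkb1 and Relb to Rela do. With the longest transcript as length, mean Nfkb2 to Nfkb1 is 0.577 in controls and 0.521 with heme.

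The heme libraries differed among themselves over most members. Heme replicate 2 was the highest of the 3 heme libraries for 8 of the 10 members, whether they rose (Nfkbia, Nfkbie, Tnfaip3), fell (Rel, Nfkb1, Nfkb2) or were not called (Relb, Nfkbiz). Over all tested genes it was the highest for 36.9%. The exceptions were Rela and Nfkbib, for which heme replicate 2 stood at 0.985 and 0.986 times the mean of the other heme libraries. For the 8 others this ratio ran from 1.12 for Nfkb1 to 1.62 for Nfkbie and was 1.42 for Nfkbia. Heme replicate 2 was also the highest for 10 of 13 tested cytokine and chemokine targets of NF-κB and for 14 of 18 other tested targets. Tnf, the gene of the cytokine TNF, was at 69.6, 120 and 80.1 CPM in the heme libraries and at 22.7, 13.6 and 16.4 CPM in controls. Heme replicate 2 was the shallowest library (27201038 counts). Among the controls, replicate 1 was the lowest for 8 of the 10 members, against 36.9% of all tested genes.

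Of the 7 members with a promoter window, the 5 with an NF-κB match were those for which heme replicate 2 was the highest, and the 2 without one were Rela and Nfkbib. This was seen after the values were known, and rests on 7 genes. Over the 1150 other tested genes with a match, heme replicate 2 was the highest for 38.8%, and over 8378 without one for 36.5%, a difference of a few percentage points. The median log2 fold change was -0.015 with and 0.0043 without a match.

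The wider pathway was described with 7 lists of 111 genes, of which 103 were tested. The test was passed by 32 upward and 30 downward and not by 41, and the 60.2% called were close to the 62.5% of all tested genes. With library sizes alone, 21 rose and 55 fell.

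Above the members stands the IKK complex, of which the regulatory subunit gene rose. Ikbkg, which encodes the regulatory subunit NEMO, was at 92.2, 90.7 and 85.1 CPM in controls and 173, 170 and 163 CPM with heme (log2 fold change 0.92, standard error 0.06, adjusted p = 1.41e-06, edgeR). Exon overlaps with other genes were examined for the members only, not for Ikbkg or the other pathway genes. The catalytic subunit genes Chuk and Ikbkb had log2 fold changes of -0.01 and -0.02 (standard errors 0.06 and 0.07, adjusted p = 0.862 and 0.766, edgeR), neither past the threshold. Ikbke, the gene of the IKK-related kinase IKKε, fell from 102 ± 10.6 to 33 ± 5.68 CPM (SD, n = 3). Of the 11 genes of IKK and upstream kinases, 1 rose and 5 fell (median -0.24), and with library sizes alone 1 rose and 8 fell. Those that fell include Map3k7, the gene of the kinase TAK1 that activates IKK (-0.43), and Tab1, the gene of its partner (-0.61).

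Of 8 genes of other IκB-like and NF-κB-binding proteins, 4 rose and 0 fell (median 0.26), whereas with library sizes alone 1 rose and 2 fell. The atypical IκB gene Nfkbid had a log2 fold change of 0.51, Nkrf, which encodes an NF-κB repressing factor, of 0.45, and Nkiras1, the gene of a Ras-like protein that binds IκB, of 0.39. The calls of Nkrf and Nkiras1 were lost with library sizes alone (adjusted p = 0.174 and 0.0929), and that of Nkrf also without heme replicate 1 (adjusted p = 0.0563). Bcl3, another nuclear IκB, was at 15.7, 19.3 and 18.8 CPM in controls and 17.6, 25.9 and 18.5 CPM with heme and did not pass the test (adjusted p = 0.266).

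Of 20 genes of adaptors and scaffolds, 5 rose and 6 fell (median -0.06), with 4 and 13 when library sizes alone were used. Ripk2, the kinase that acts below the NOD receptors, rose from 12 ± 0.407 to 24 ± 1.54 CPM, and Traf3, a brake on the noncanonical pathway, from 36.1 ± 1.72 to 58.2 ± 2.02 CPM (SD, n = 3). Traf5, of the same family, had a log2 fold change of 0.65. Genes that fell include the intracellular sensor Nod1 (-0.79), Traf1 (-0.73) and Myd88, the adaptor of most Toll-like receptors (-0.46).

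Of 19 genes of ubiquitin ligases and deubiquitinases, 4 rose and 5 fell (median 0.0033), with 2 and 11 when library sizes alone were used. Tax1bp1 and Rnf11, which encode partners of A20, had log2 fold changes of 0.69 and 0.68, and Tnip3, which encodes an A20-binding protein, of 0.62 (adjusted p = 8.76e-06, 1.12e-05 and 0.00646, edgeR). The call of Tnip3 was lost with library sizes alone (adjusted p = 0.053). Rnf31 and Rbck1, genes of the linear ubiquitin ligase, fell (log2 fold changes -0.71 and -0.35), as did Cyld, a deubiquitinase gene (-0.43).

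Of 14 receptor genes, 4 rose and 6 fell (median -0.28), with 2 and 9 when library sizes alone were used. Toll-like receptor genes were among those that fell. Tlr9, the sensor of CpG DNA, went from 41.5 ± 10.7 to 8.29 ± 0.838 CPM and Tlr1 from 25.8 ± 1.61 to 7.56 ± 0.612 CPM (SD, n = 3). Cd40, the gene of a receptor that signals to both NF-κB pathways, went from 12.4 ± 2.49 to 3.42 ± 1.07 CPM. The TNF receptor gene Tnfrsf1b rose from 455 ± 70.4 to 667 ± 44.8 CPM. The IL-1 receptor gene Il1r1 rose from 0.387 ± 0.248 to 2.36 ± 0.461 CPM and its coreceptor gene Il1rap from 11.2 ± 2 to 15.4 ± 0.514 CPM, a call lost for Il1rap with library sizes alone (adjusted p = 0.133). Il1r1 passed the filter on low counts only through the heme libraries, so the count of receptor genes that rose depends on the filter.

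The genes that NF-κB is known to switch on went both ways. Of 19 cytokine and chemokine targets, 13 were tested, and 9 of them rose and 3 fell (median log2 fold change 2.01), with 7 and 3 when library sizes alone were used. Of all tested genes, 31.7% rose and 30.8% fell. Cxcl1, Cxcl3, Cxcl5 and Il1a passed the filter on low counts only through the heme libraries, and Ccl5 and Cxcl10 only through the controls. The counts of targets and their median thus depend on the filter. The neutrophil-attracting chemokine genes rose most. Cxcl2 was at 1.8, 1.16 and 1.44 CPM in controls and 16.8, 44.1 and 19.8 CPM with heme. Cxcl3 rose from 0.0699 ± 0.0482 to 3.08 ± 1.13 CPM (SD, n = 3). Cxcl5 had 1 count in the controls and 157 counts with heme, a ratio of 195 (exact binomial 95% interval 34.6 to 7767, for counting error only).

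In contrast, 3 chemokine genes fell, of which Ccl5 and Cxcl10 also depend on interferon signals: Ccl5 from 1.37 ± 0.645 to 0.132 ± 0.0315 CPM, Cxcl10 from 3.37 ± 1.14 to 0.411 ± 0.251 CPM and Ccl4 from 22.7 ± 1.7 to 7.14 ± 0.521 CPM (SD, n = 3). The 6 genes that did not pass the filter on low counts were Il1b, Il6, Il12b, Ccl22, Csf2 and Csf3. Il12b and Csf2 had no count in any library, which allows up to 0.0829 to 0.119 CPM per library (3 counts). Il1b, one of the genes most readily induced through NF-κB in macrophages, was at or below 0.138 CPM in each library.

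Of 20 other targets, 18 were tested, of which 5 rose and 5 fell (median -0.14), with 4 and 9 when library sizes alone were used. Ptgs2, the gene of the prostaglandin-producing enzyme COX-2 (log2 fold change 7.41), Saa3, an acute-phase gene (3.18), and Ier3, an early-response gene (2.21), rose. Cd83, a surface marker of activated cells, fell from 45.3 ± 8.64 to 3.87 ± 1.17 CPM, and the transcription factor gene Irf1 from 40.1 ± 4.76 to 18.6 ± 3.15 CPM (SD, n = 3). Bcl2a1b, a survival gene, had a log2 fold change of -3.41, but it is nearly identical to Bcl2a1a and Bcl2a1d, so that its value is uncertain.

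**Figure D5:**
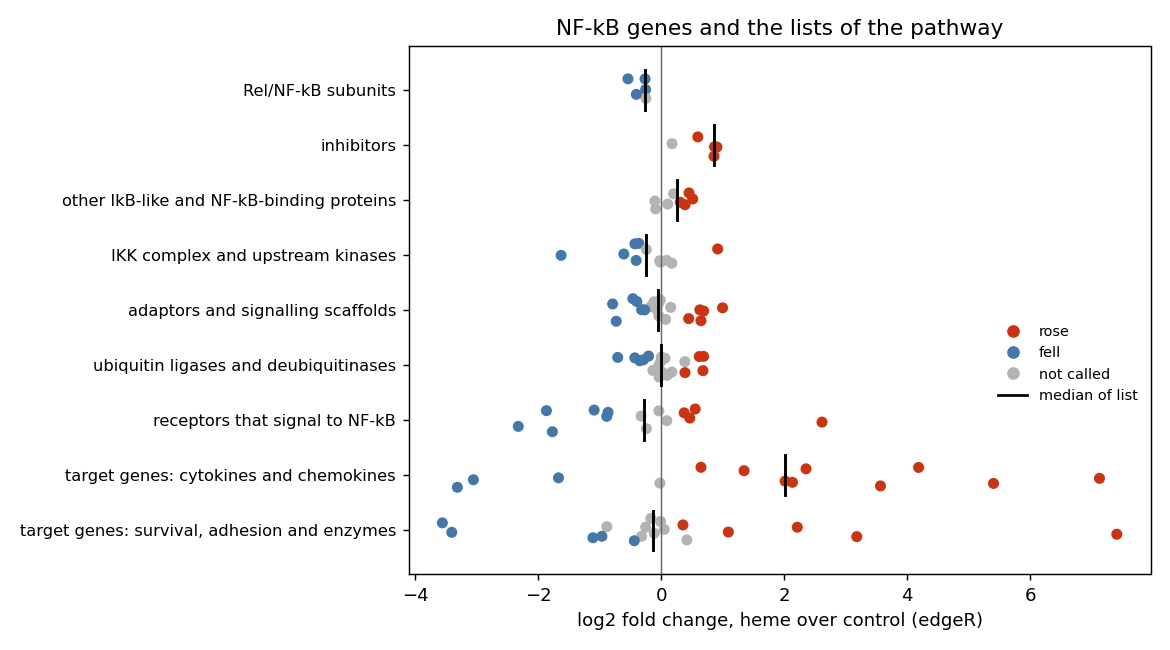
Log2 fold change (heme over control, x axis) of the tested members and of the 7 pathway lists, 1 point per gene, red where it rose, blue where it fell and gray where it did not pass the test. Black lines are medians, from -0.28 for the receptors to 2.01 for the cytokine and chemokine targets. Some of these targets passed the filter on low counts only through the heme or only through the control libraries. Among the receptors, Il1r1 passed it only through the heme libraries.

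The cell type was checked with marker genes. All 7 macrophage markers were expressed, with Csf1r at 1785 to 2550 CPM in controls and 1388 to 1560 CPM with heme, and 1 of the 7 rose while 5 fell. The largest falls were those of Mertk, from 93 ± 19.8 to 24.8 ± 4.95 CPM, and Fcgr1, from 69.9 ± 15.3 to 17.4 ± 0.887 CPM (SD, n = 3). Of 10 neutrophil markers, 6 rose, 1 (Csf3r) fell and 3 (Ly6g, Camp and Retnlg) had too few counts for the test, with a median log2 fold change of 3.36 over the 7 tested. Mpo, the gene of the granule enzyme myeloperoxidase, rose from 0.0102 ± 0.0177 to 22.3 ± 7.91 CPM, and S100a8, S100a9 and Ngp rose from 2.02 ± 0.333, 3.41 ± 0.882 and 1.5 ± 0.465 CPM to 34.3 ± 4.52, 26 ± 4.68 and 15.5 ± 4.05 CPM (SD, n = 3). Elane had no count in controls and 3.87 ± 1.23 CPM with heme, and Ltf also rose. Mpo and Elane passed the filter on low counts only through the heme libraries, so the median is over genes that the heme levels helped to admit. The list summed to 57.6 to 117 CPM in controls, most of it from Csf3r (75.2 ± 28.1 CPM, and 35.5 ± 5.46 with heme), and to 122 to 164 CPM with heme. Without Csf3r it summed to 6.85 to 11.1 and 89.5 to 132 CPM. Ly6g was at or below 0.22 CPM in each library. Of 5 monocyte markers, 3 rose and 1 fell, and they summed to 82 to 163 CPM and 188 to 251 CPM. Ly6c2 rose from 0.334 ± 0.0838 to 39.1 ± 1.45 CPM and Ccr2 fell from 23.6 ± 1.87 to 12.6 ± 2.56 CPM (SD, n = 3). Ly6c2 and Plac8, which also rose, passed the filter only through the heme libraries. None of the 5 dendritic cell and 5 T and NK cell markers passed the filter, with sums of at most 1.4 and 0.183 CPM. Cd3e and Cd3g had no count. Of 4 mast cell, 5 erythroid and 5 stromal and endothelial markers 1 each rose, on sums of at most 1.89 CPM in any library. The genes that rose in these lists passed the filter only through the heme libraries. The part that the neutrophil and monocyte marker levels have in the values of the members was not tested.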

How the data were processed

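Stranded TruSeq libraries were made from RNA (integrity number above 9) of 3 albumin-treated and 3 heme-albumin-treated BMDM cultures and sequenced in bulk. The files deposited by the authors hold raw read counts, 1 file per library, and the submitters' processing notes name STAR 2.7.0, featureCounts and GRCm38.p5. The sources used here give neither the annotation release nor the strand setting. Symbols, positions and exon lengths came from GENCODE M21 (GRCm38), in which 36 of 25700 identifiers had no symbol.

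Counts were analysed in R 4.3.3 with edgeR 4.0.16 (filterByExpr with a minimum count of 10, TMM, glmQLFit and glmQLFTest, group as the only term), and p-values were adjusted over all 12433 genes tested. Levels are TMM-normalized CPM. Levels per length are CPM divided by kb of the union of annotated exons. Alternatives were other scalings, DESeq2 1.42.0, limma 3.58.1 (voom), other filters, the replicate number as a block, the longest transcript as length, and leaving out each library. The members and lists were chosen with earlier results of these data known. Named pathway genes are, in each list, up to 3 with the largest rise and 3 with the largest fall among called genes. Tnf, Cxcl1, Il1a, Chuk, Ikbkb, Bcl3, the named cell type markers, Bcl2a1a, Bcl2a1d and the genes without enough counts are outside that rule: they were picked with their values known. The result of 1 marker list is not reported here.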

Additional observations from a re-analysis of the deposited data

How the results depend on the processing

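With library sizes as the only scaling, 2580 genes were higher and 5814 lower with heme, and 21 genes of the pathway lists rose and 55 fell. The estimate of Nfkbiz changed sign with library sizes alone (-0.044) and without heme replicate 2 (-0.074), ran up to 0.31 without heme replicate 1, and did not pass the test in any setting. The 8 called members kept their direction and their call in the 14 alternatives, and their log2 fold changes ran from -0.48 to -0.24 for Rela, -0.76 to -0.42 for Rel, -0.48 to -0.22 for Nfkb1, -0.63 to -0.33 for Nfkb2, 0.65 to 0.96 for Nfkbia, 0.37 to 0.64 for Nfkbib, 0.64 to 1.04 for Nfkbie and 0.64 to 0.96 for Tnfaip3. Relb passed the test in 4 of the 14. The causes were not tested.

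Libraries with the same replicate number did not deviate together (correlations of residuals -0.0998, -0.142 and -0.0683), and none correlated best with its own number. With the replicate block, 3671 genes were higher and 3493 lower, and 4 members rose and 5 fell, the fifth being Relb (log2 fold change -0.25, adjusted p = 0.0459, edgeR). Without 1 library each, 3457 to 4071 genes were higher and 3253 to 3968 lower, 4 members rose and 4 to 5 fell. With 3 cultures a group, single-gene permutation tests cannot go below p = 0.1 (exact). At this depth a count of 0 allows up to 0.119 CPM in the shallowest library.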
